A study of Homo sapiens with 12 samples.

Results

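Mesenchymal transition transcription factors are described here in cultured lung fibroblasts with and without transforming growth factor β (TGF-β). The set holds 7 genes, taken by symbol: SNAI1 and SNAI2, which encode Snail and Slug, together with TWIST1, TWIST2, ZEB1, ZEB2 and PRRX1. They are 7 of the 25702 genes in the count table. Of the 7, 6 were among the 9490 genes that could be tested, which needed at least 10 cpm (a gene's counts scaled to library size) in 6 or more of the 12 libraries. SNAI1 stayed under that level in every library.

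RNA was sequenced from WI-38 cells, an established line of human foetal lung fibroblasts, in 4 groups of 3 flasks. D1 cells were left untreated and D1+ TGF-β cells received 2 ng/mL TGF-β, both harvested after 1 day at passages 2 to 3. D20 and D20+ TGF-β cells were kept for 20 days without and with TGF-β and harvested at passages 5 to 6. All groups carry the same unmodified line, so the flasks are repeats of 1 line and not of donors. By the study's methods, the flasks of each D20 group were seeded from a single treated or untreated flask, and the 3 flasks sequenced per group were picked from 5 on the amount and quality of RNA. The p-values below therefore measure the spread between flasks, and days in culture and passage number cannot be told apart.

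These factors repress epithelial genes and favour a migratory, matrix-producing state during epithelial to mesenchymal transition (EMT) in embryos, wounds and carcinomas. Snail proteins are zinc finger repressors and ZEB proteins are zinc finger homeobox repressors, and both families read the E-box CAGGTG in promoters such as that of E-cadherin. TWIST proteins are basic helix-loop-helix (bHLH) factors that bind E-boxes as dimers with E proteins, and PRRX1 is a paired-type homeobox factor. Fibroblasts are mesenchymal already and usually express several of these genes, whose products are also linked to fibroblast activation.

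The promoters below give the context of the genes whose values matter most here. ZEB1 and PRRX1 changed in opposite directions after 20 days of TGF-β. DSP and CRB3 are epithelial genes, the first detected in every flask and the second almost absent. Each line holds the 250 bases before the start of the gene from RefSeq (GRCh38.p14), 5′ to 3′ on the gene's strand, with CAGGTG or its reverse complement CACCTG in capitals. They lie at chr10:31318167-31318416, chr1:170663881-170664130, chr6:7541421-7541670 and chr19:6464021-6464270 in the order printed, all on the plus strand.
ZEB1: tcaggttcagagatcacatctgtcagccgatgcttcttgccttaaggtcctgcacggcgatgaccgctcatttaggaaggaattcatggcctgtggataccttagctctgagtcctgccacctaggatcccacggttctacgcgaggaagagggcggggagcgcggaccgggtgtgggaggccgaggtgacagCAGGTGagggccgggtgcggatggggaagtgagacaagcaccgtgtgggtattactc
PRRX1: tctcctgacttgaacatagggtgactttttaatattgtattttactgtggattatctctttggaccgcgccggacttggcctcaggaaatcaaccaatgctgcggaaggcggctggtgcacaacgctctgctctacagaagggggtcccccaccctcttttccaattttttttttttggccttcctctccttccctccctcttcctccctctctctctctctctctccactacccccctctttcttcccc
DSP: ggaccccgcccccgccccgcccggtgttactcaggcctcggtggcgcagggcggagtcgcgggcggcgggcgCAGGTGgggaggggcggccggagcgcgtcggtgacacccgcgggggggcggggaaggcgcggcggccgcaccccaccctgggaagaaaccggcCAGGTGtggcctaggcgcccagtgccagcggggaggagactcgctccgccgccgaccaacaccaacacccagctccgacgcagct
CRB3: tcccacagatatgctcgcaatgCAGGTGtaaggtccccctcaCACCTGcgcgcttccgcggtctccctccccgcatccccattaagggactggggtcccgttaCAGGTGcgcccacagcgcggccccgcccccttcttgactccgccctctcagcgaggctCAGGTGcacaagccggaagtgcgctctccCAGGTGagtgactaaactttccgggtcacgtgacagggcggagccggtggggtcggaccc

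ZEB1 held the E-box at 1 place, 57 bases before its start, DSP at 2 and CRB3 at 5, while PRRX1 held none. Searched on both strands, the E-box was in 4781 of 27305 promoter windows of this length (17.51%). Of the factors, 4 had a window in the table (ZEB1, ZEB2, TWIST2 and PRRX1) and ZEB1 was the 1 with a match. Of 12 epithelial genes with a window, 5 had the E-box, against 1 of 11 mesenchymal genes. A match gives letters only and was not measured as a bound site.

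The 12 libraries held 8674488 to 18286197 counts. All 8 fibroblast markers passed the filter, with COL1A1 at 2548 to 8184 cpm, PDGFRB at 105 to 241 cpm and LUM at 33.9 to 365 cpm. Of the markers of other cell types, 1 of 6 epithelial (KRT19, 4.80 to 26.7 cpm) and 1 of 5 endothelial genes (TEK, 33.2 to 249 cpm) passed. So did 1 of 5 immune (CD68, 38.1 to 62.6 cpm) and 3 of 5 smooth muscle and pericyte genes (ACTA2, CSPG4 and RGS5). CDH5, CD3E and KRT5 had no count in any library, and PECAM1 and PTPRC did not exceed 0.31 and 0.19 cpm. Summed over the 5 endothelial markers, nearly all of it TEK, the level was 46.3 to 80.2 cpm in D1, 35.0 to 40.8 cpm in D1+ TGF-β, 223 to 251 cpm in D20 and 78.1 to 152 cpm in D20+ TGF-β. D1 replicate 2 and D20+ TGF-β replicate 3 stood farthest from their group, and leaving them out changed several results, as given beside those. Summed over 10 cell cycle genes, the level was 939 to 1447 cpm in D1, 1064 to 1147 cpm in D1+ TGF-β, 149 to 195 cpm in D20 and 341 to 571 cpm in D20+ TGF-β, so this level moved with time and, at day 20, with treatment. At an adjusted p under 0.01 (edgeR), all 10 were higher in D20+ TGF-β than in D20, against 12.8% of all tested genes. All 10 were lower in D20 than in D1, against 17.6%. The part of these shifts, or of that in TEK, in the results below was not tested.

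ZEB1 was the most abundant factor per length of transcript in all 4 groups and SNAI1 the least. Divided by the exonic length of the gene (GENCODE, GRCh37), ZEB1 stood at 44.2 cpm per kilobase in D1, 49.9 in D1+ TGF-β, 65.8 in D20 and 41.9 in D20+ TGF-β. SNAI1 stood at 2.24 to 2.70 cpm per kilobase over the group means. On this scale the order in D1 was ZEB1, SNAI2 (20.5), PRRX1 (14.9), TWIST2 (8.95), TWIST1 (8.17), ZEB2 (6.06) and SNAI1 (2.40). On this length TWIST1 at 7.91 to 8.35 and TWIST2 at 8.14 to 9.41 were neighbours whose flasks overlapped. The ends of the order did not depend on the length used, but the middle did: with the canonical transcript alone, PRRX1 (28.4) stood above SNAI2 (22.3) and ZEB2 (10.2) above TWIST1 (8.17) in D1. TWIST2 (15.3 to 17.6) then also stood above TWIST1 (7.91 to 8.35), without overlap.

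Both ZEB genes rose with time in untreated culture, and ZEB1 was the factor called lower under TGF-β at day 20. ZEB1 (chr10:31607424-31818742, plus strand, 9 exons) measured 260, 324 and 278 cpm in D1 and 343, 339.9 and 289 cpm in D1+ TGF-β. The flasks of those groups overlapped. As in any bulk sample, fewer expressing cells and less RNA per cell cannot be told apart. At day 20 it measured 424, 421 and 438 cpm without TGF-β and 265, 293 and 259 cpm with it. Each treated flask at day 20 lay below each untreated flask, and the untreated D20 flasks were the highest of all 12. ZEB1 fell by 0.65 on the log2 scale in D20+ TGF-β vs D20 (SE 0.09, adjusted p = 9.76e-05, edgeR), a 1.57-fold difference. It rose by 0.57 in D20 vs D1 (SE 0.09, adjusted p = 1.83e-04). The mean was 272 cpm in D20+ TGF-β and 287 cpm in D1. Between the TGF-β groups of day 20 and day 1, ZEB1 was not called with all libraries. Without D1 replicate 2 it was called lower at day 20 (-0.26, adjusted p = 0.00896, edgeR). At day 1 the TGF-β difference was 0.17 (SE 0.09, adjusted p = 0.189). The response at day 20 was lower than at day 1 by 0.83 (log2, SE 0.13, adjusted p = 7.87e-04, edgeR), and this difference of responses was called under each of the 22 alternatives.

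ZEB2 (chr2:145121931-145278624, minus strand, 10 exons) moved over a narrower range. It measured 101, 90.0 and 93.5 cpm in D1 and 88.8, 85.4 and 87.7 cpm in D1+ TGF-β. The day 20 values were 111, 115 and 117 cpm without and 94.5, 106 and 93.3 cpm with TGF-β. In both TGF-β comparisons the treated flasks lay below the untreated ones without overlap, yet neither difference passed the test (-0.12, adjusted p = 0.224 at day 1, and -0.23, adjusted p = 0.0167 at day 20). The day 20 difference passed without D1 replicate 1 (adjusted p = 0.00860) or D20+ TGF-β replicate 2 (-0.28, adjusted p = 0.00914). ZEB2 rose by 0.27 on the log2 scale in D20 vs D1 (SE 0.07, adjusted p = 0.00486). That call was lost in 9 of 23 alternatives, among them the fit without D1 replicate 2 (0.22, adjusted p = 0.0157). The ratio of ZEB1 to ZEB2 cpm within a flask, not corrected for length, was 3.74 ± 0.08 in D20 and 2.78 ± 0.02 in D20+ TGF-β (SD, n = 3). At day 1 it was 3.05 ± 0.51 in D1 and 3.71 ± 0.36 in D1+ TGF-β, where the flasks overlapped.

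PRRX1 had the reverse pattern, lower with time in untreated cells and higher under TGF-β at day 20. PRRX1 (chr1:170631869-170708562, plus strand, 4 exons) measured 95.9, 125 and 125 cpm in D1 and 158, 158 and 133 cpm in D1+ TGF-β. At day 20 it measured 84.8, 78.6 and 73.1 cpm without TGF-β and 138, 135 and 196 cpm with it. The treated flasks lay above the untreated ones on both days. PRRX1 rose by 0.99 on the log2 scale in D20+ TGF-β vs D20 (SE 0.14, adjusted p = 1.13e-04), a 1.98-fold difference. The highest flask was D20+ TGF-β replicate 3, and without it the rise was 0.80 (adjusted p = 1.22e-04). At day 1 the difference was 0.38 (SE 0.14, adjusted p = 0.0693), and the day 20 and day 1 responses differed by 0.61 (SE 0.20, adjusted p = 0.0437), both short of the threshold of 0.01.

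Between the untreated groups, PRRX1 fell by 0.55 on the log2 scale in D20 vs D1 (SE 0.14, adjusted p = 0.00561). This call was lost when D1 replicate 2 (adjusted p = 0.0139), D1 replicate 3 (adjusted p = 0.0254) or any 1 of the D20 flasks (adjusted p = 0.0105 to 0.0294) was left out. Under TGF-β the level in D20 cells was 156.3 ± 34.1 cpm against 149.6 ± 14.7 cpm in D1 cells (SD, n = 3), a log2 difference of 0.06 that did not pass the test (adjusted p = 0.743).

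PRRX2, the paralog of PRRX1, was too low for the filter and was lower under TGF-β on both days. PRRX2 averaged 5.90 ± 1.15 cpm in D1, 1.56 ± 0.50 cpm in D1+ TGF-β, 15.1 ± 1.04 cpm in D20 and 3.48 ± 1.38 cpm in D20+ TGF-β (SD, n = 3). It had 58 to 108 counts per library in D1, 10 to 24 in D1+ TGF-β, 157 to 228 in D20 and 20 to 70 in D20+ TGF-β, and the groups did not overlap on either day. In an edgeR fit without the filter PRRX2 fell by 1.98 on the log2 scale at day 1 (SE 0.26, adjusted p = 3.29e-06) and fell by 2.08 at day 20 (SE 0.21, adjusted p = 1.11e-08). It rose by 1.26 in D20 vs D1 (SE 0.19, adjusted p = 8.18e-06). In the same fit PRRX1 differed by 0.36 at day 1 (adjusted p = 0.0567) and rose by 1.01 at day 20 (adjusted p = 5.63e-07).

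**Figure D1:**
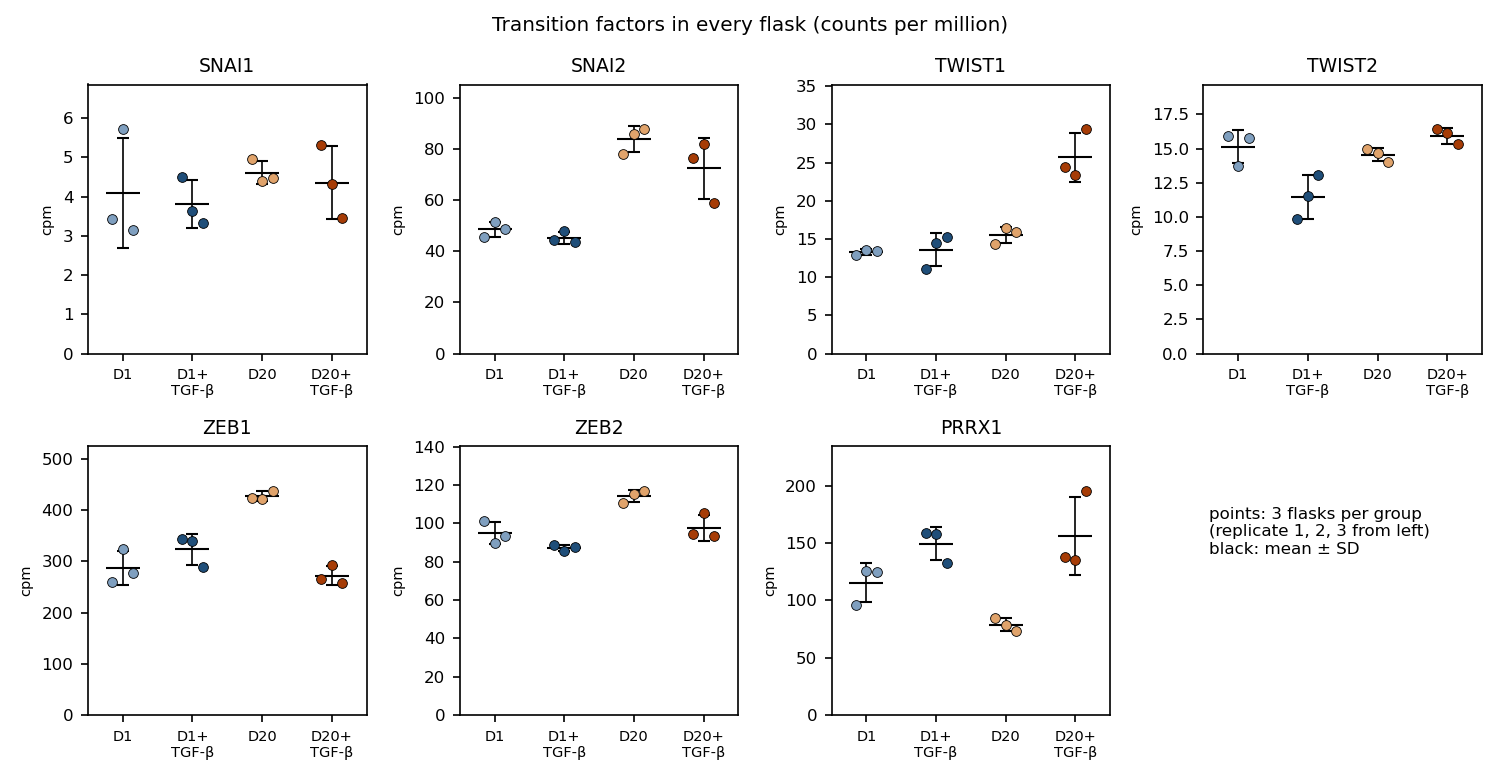
Cpm of the 7 factors in every flask, with 1 panel per gene, axes from 0, points for the 3 flasks of each group and black marks for the mean ± SD. ZEB1 is highest in the 3 D20 flasks (421 to 438 cpm) and PRRX1 lowest there (73.1 to 84.8 cpm), while TWIST1 is highest in the 3 D20+ TGF-β flasks (23.3 to 29.4 cpm).

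TWIST1 responded to TGF-β at day 20, and TWIST2 did not pass the test at either time. TWIST1 (chr7:19060614-19157259, minus strand, 2 exons) measured 12.9, 13.6 and 13.4 cpm in D1 and 11.1, 14.4 and 15.3 cpm in D1+ TGF-β. At day 20 it measured 14.4, 16.4 and 15.9 cpm without and 24.5, 23.3 and 29.4 cpm with TGF-β. The D20+ TGF-β flasks stood above the other 9 libraries. TWIST1 rose by 0.72 on the log2 scale in D20+ TGF-β vs D20 (SE 0.12, adjusted p = 2.98e-04) and by 0.91 between the TGF-β groups of day 20 and day 1 (SE 0.12, adjusted p = 5.47e-05). At day 1 the TGF-β difference was 0.04 (SE 0.13, adjusted p = 0.860). The day 20 response exceeded the day 1 response by 0.68 (SE 0.17, adjusted p = 0.0132), just outside the threshold, and DESeq2 put it inside (adjusted p = 0.00509).

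TWIST2 (chr2:239756673-239832230, plus strand, 2 exons) measured 15.9, 13.8 and 15.7 cpm in D1 and 9.81, 11.5 and 13.0 cpm in D1+ TGF-β. The groups did not overlap, and the difference of -0.40 (SE 0.11) had an adjusted p of 0.0171. Without D1 replicate 2 it was -0.46 and passed (adjusted p = 0.00761). At day 20 the values were 14.9, 14.6 and 14.0 cpm without and 16.4, 16.1 and 15.3 cpm with TGF-β, a difference of 0.14 (SE 0.10, adjusted p = 0.310). Only the D1+ TGF-β flasks stood low, and TWIST2 rose by 0.48 between the TGF-β groups of day 20 and day 1 (SE 0.11, adjusted p = 0.00262). That rise lost its call without D1+ TGF-β replicate 1 (adjusted p = 0.0147) or 2 (adjusted p = 0.0130) or without D20+ TGF-β replicate 1 (adjusted p = 0.0123). The ratio of TWIST1 to TWIST2 cpm within a flask was 0.89 ± 0.09 in D1, 1.19 ± 0.06 in D1+ TGF-β, 1.07 ± 0.10 in D20 and 1.62 ± 0.26 in D20+ TGF-β (SD, n = 3).

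**Figure D2:**
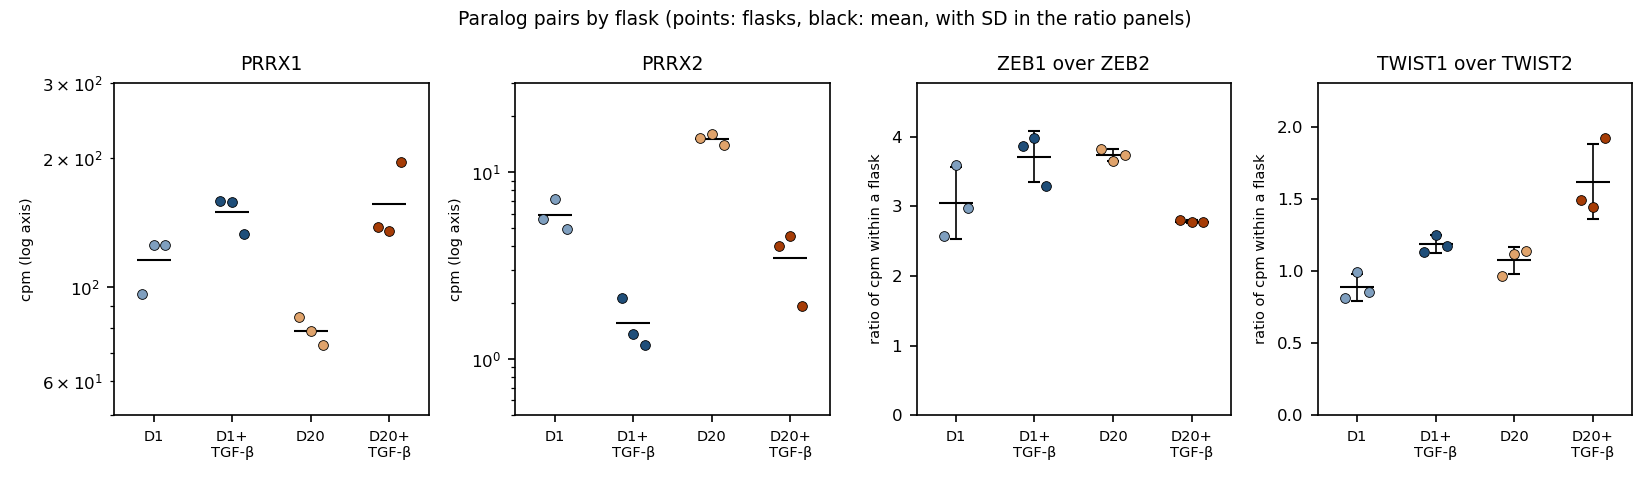
PRRX1 and PRRX2 in cpm on log axes, and the ratios of ZEB1 to ZEB2 and of TWIST1 to TWIST2 within each flask, for the 3 flasks of each group with their mean (SD in the ratio panels). PRRX1 is higher and PRRX2 lower in the treated flasks of both days, and the ZEB1 to ZEB2 ratio is 2.77 to 2.81 in D20+ TGF-β against 3.66 to 3.82 in D20. At day 1 that ratio is 3.30 to 3.98 in D1+ TGF-β and 2.58 to 3.59 in D1.

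SNAI2 followed time in culture, with or without TGF-β. SNAI2 (chr8:49830157-49834299, minus strand, 3 exons) measured 45.6, 51.5 and 48.8 cpm in D1 and 44.2, 47.8 and 43.4 cpm in D1+ TGF-β. At day 20 it measured 78.0, 85.8 and 87.6 cpm without and 76.3, 81.7 and 59.0 cpm with TGF-β. All 6 day 20 flasks stood above all 6 day 1 flasks, and the treated and untreated flasks overlapped on both days. SNAI2 rose by 0.79 on the log2 scale in D20 vs D1 (SE 0.10, adjusted p = 3.58e-05) and by 0.68 between the TGF-β groups of day 20 and day 1 (SE 0.11, adjusted p = 1.77e-04). The TGF-β differences were -0.11 (adjusted p = 0.511) at day 1 and -0.21 (adjusted p = 0.114) at day 20. The latter was -0.09 (adjusted p = 0.426) without D20+ TGF-β replicate 3, the lowest treated flask.

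SNAI1 (chr20:48599517-48605423, plus strand, 3 exons), whose protein is controlled largely by turnover, was low in every flask. It had 28 to 93 counts per library, which is 3.15 to 5.71 cpm. The group means were 4.10 ± 1.40 cpm in D1, 3.81 ± 0.61 cpm in D1+ TGF-β, 4.61 ± 0.30 cpm in D20 and 4.36 ± 0.94 cpm in D20+ TGF-β (SD, n = 3). All groups overlapped. In the fit without the filter no comparison passed, with TGF-β differences of -0.15 (SE 0.23, adjusted p = 0.757) at day 1 and -0.03 (SE 0.22, adjusted p = 0.980) at day 20. SNAI3, the remaining Snail paralog, had 9 to 51 counts per library and rose by 1.09 in D20+ TGF-β vs D20 in that fit (SE 0.31, adjusted p = 0.00970).

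The antisense gene ZEB1-AS1 had 28 to 81 counts per library, and no comparison passed for it in the fit without the filter. It overlaps the start of ZEB1 on the opposite strand. Unnamed noncoding genes overlap SNAI2 and TWIST1 on the opposite strand and PRRX1 on the same strand in the annotation. ZEB2 is overlapped by its antisense gene ZEB2-AS1, which is absent from the count table, and by unnamed genes and pseudogenes on both strands. Pseudogenes also overlap ZEB1 on both strands. Whether the counting used strand is not given in the sources used here. Reads of such partners cannot be told apart from those of the factors.

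Read against all genes tested, a count over 6 genes says little about the set, so each count is given with its background at an adjusted p under 0.01. In D1+ TGF-β vs D1, 0 of 6 were called by edgeR, DESeq2 and limma-voom on 12 libraries, against 13.4% of all tested genes. An unadjusted p under 0.05 (edgeR) was found for 2 of the 6 and for 3498 of the 9490 genes tested. In D20+ TGF-β vs D20, 3 of 6 were called (TWIST1 and PRRX1 higher, ZEB1 lower) against 27.5% of all genes, 12.8% higher and 14.7% lower. Between the TGF-β groups of the 2 days, 3 of 6 were called (SNAI2, TWIST1 and TWIST2, all higher) against 34.8%, 17.2% higher and 17.7% lower. In D20 vs D1, 4 of 6 were called (SNAI2, ZEB1 and ZEB2 higher, PRRX1 lower) against 36.4%, 18.9% higher and 17.6% lower. The difference of the TGF-β responses was called for ZEB1 of the 6, against 10.4% of all genes, 4.51% higher and 5.87% lower. Flasks under TGF-β did not overlap with untreated flasks for 3 of 6 factors at day 1 (36.4% of all genes) and for 5 of 6 at day 20 (58.3%). Flasks of the 2 days did not overlap for 4 of 6 with TGF-β (63.2%) and for 5 of 6 without it (55.6%). The comparisons share groups, so their counts are not independent of each other. Of all genes called, 51.5% were higher in D1+ TGF-β vs D1, 46.4% in D20+ TGF-β vs D20, 51.8% in D20 vs D1 and 43.5% in the difference of responses. Without a composition factor in the scaling these shares were 34.8%, 56.4%, 39.7% and 66.9%, and the median of all genes in the difference moved from 0.02 to 0.13 (log2).

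Leaving out both D1 replicate 2 and D20+ TGF-β replicate 3, 3 of 6 factors were called in D1+ TGF-β vs D1: TWIST2 (-0.46, adjusted p = 0.00421) fell, and ZEB1 (0.28, adjusted p = 0.00642) and PRRX1 (0.45, adjusted p = 0.00133) rose. The genes called over all genes went from 1271 to 2642 in that fit. The counts at day 20 were 3 of 6 with and without these libraries.

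**Figure D3:**
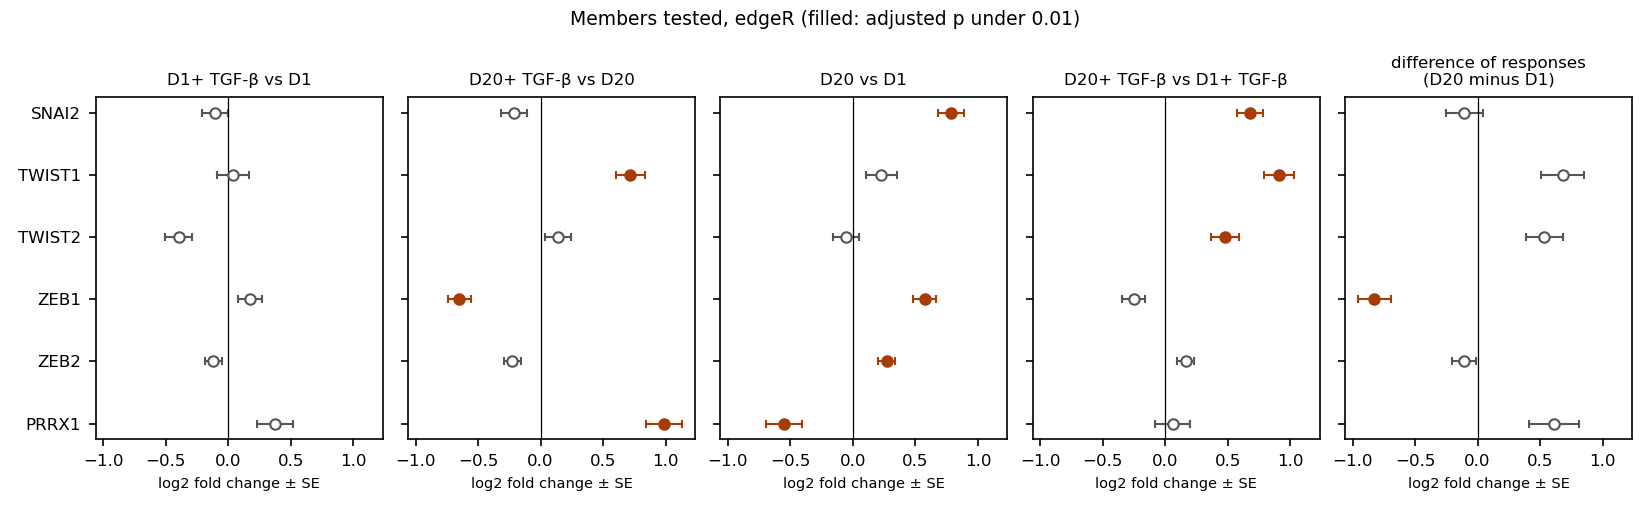
Log2 fold changes with standard errors of the 6 tested factors in the 4 comparisons and in the difference of the TGF-β responses, filled where the adjusted p was under 0.01. ZEB1 is to the left of 0 (-0.65) and PRRX1 (0.99) and TWIST1 (0.72) are to the right in D20+ TGF-β vs D20, while no point is filled in D1+ TGF-β vs D1.

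Of 9 other transcription factors named in EMT, 4 were tested. In D1+ TGF-β vs D1, 0 of 4 were called by edgeR and limma-voom on 12 libraries, against 13.4% of all tested genes. DESeq2 called 1 (HMGA2, at 0.60 on the log2 scale with an adjusted p of 0.0258 by edgeR). All 4 had an unadjusted p under 0.05, as did 3498 of the 9490 genes tested. Without D1 replicate 2 and D20+ TGF-β replicate 3, 2 of 4 were called higher at day 1. In D20+ TGF-β vs D20, 3 of the 4 rose, against 12.8% of all tested genes. HMGA2, an architectural chromatin protein known to raise SNAI1 and TWIST1 transcription, rose most of the 3: it was 119.9 ± 7.18 cpm in D20 and 321 ± 97.2 cpm in D20+ TGF-β (SD, n = 3, log2 1.42, adjusted p = 4.74e-05). TBX3 rose by 0.43 (adjusted p = 6.19e-04) and SOX9 by 0.40 (adjusted p = 0.00180), the latter not without D20 replicate 3 or D20+ TGF-β replicate 2. With time in untreated cells HMGA2 fell by 2.13 (adjusted p = 1.03e-06), SOX9 fell by 0.56 (adjusted p = 1.02e-04) and SOX4 rose by 1.76 (adjusted p = 1.05e-06). The list's median log2 change was 0.31 at day 1 and 0.42 at day 20, against -0.02 and 0.01 over all genes.

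The forkhead factors FOXC1, FOXC2 and FOXQ1 were below the filter, and FOXC1 and FOXC2 differed in direction. Without the filter FOXC1 fell by 0.75 (adjusted p = 0.00270) at day 1 and fell by 1.11 (adjusted p = 2.66e-06) at day 20. FOXC2 was higher by 0.54 at day 1 (adjusted p = 0.0323) and rose by 1.15 at day 20 (adjusted p = 1.92e-04), from 1.93 cpm in D20 to 4.40 cpm in D20+ TGF-β. FOXQ1 was not called at day 1 (-0.50, adjusted p = 0.160) or at day 20 (-0.13, adjusted p = 0.669) in that edgeR fit.

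Among partners of the TWIST proteins, TCF4, an E protein, was higher under TGF-β on both days. TCF4 measured 30.8, 47.5 and 36.6 cpm in D1 and 96.1, 96.0 and 90.6 cpm in D1+ TGF-β. It measured 46.9, 48.3 and 46.9 cpm in D20 and 94.1, 100.5 and 88.8 cpm in D20+ TGF-β. TCF4 rose by 1.29 (adjusted p = 5.39e-06) at day 1 and by 0.99 (adjusted p = 1.76e-05) at day 20. TCF12, a further E protein, rose by 0.37 at day 20 (adjusted p = 5.16e-04) and not at day 1 (0.05, adjusted p = 0.595), a difference of responses that did not pass (0.32, adjusted p = 0.0266) except without D1 replicate 2 (0.38, adjusted p = 0.00333). Of 7 partners and inhibitors 6 were tested, and 1 and 2 of these were called at day 1 and day 20, all higher. Of all genes 13.4% and 27.5% were called on these days, with 6.89% and 12.8% called higher.

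The ID genes, whose products sequester E proteins, were dominated by 1 library. ID1 was 62.1 cpm and ID3 87.5 cpm in D1 replicate 2, against 16.2 and 16.3 cpm for ID1 and 11.9 and 12.6 cpm for ID3 in the other D1 flasks. Their TGF-β differences at day 1 of -1.53 (adjusted p = 0.0350) and -1.73 (adjusted p = 0.0685) did not pass, and without that library they were -0.55 (adjusted p = 0.203) and -0.09 (adjusted p = 0.866). ID2 rose by 0.90 in D20 vs D1 (adjusted p = 0.00618), and by 1.38 without D1 replicate 2 (adjusted p = 4.61e-06). Leaving out D1 replicate 1 or 3 or any 1 of the D20 flasks ended the ID2 call (adjusted p up to 0.0326).

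All 13 corepressor genes were tested, and 4 were called on each day under TGF-β, in both directions, against 13.4% of all genes at day 1 and 27.5% at day 20. At day 1 KDM1A, a histone demethylase recruited by Snail, rose by 0.25 (adjusted p = 0.00717), while HDAC1 fell by 0.34 (adjusted p = 0.00300), LIMD1 fell by 0.75 (adjusted p = 3.20e-04) and WTIP fell by 0.38 (adjusted p = 0.00852). At day 20 KDM1A rose by 0.30 (adjusted p = 0.00122), HDAC2 rose by 0.29 (adjusted p = 0.00743) and EZH2, the Polycomb methyltransferase, rose by 1.02 (adjusted p = 1.51e-04). HDAC1 fell by 0.55 there (adjusted p = 3.55e-05). EZH2 was 20.2 cpm in D1, 24.1 cpm in D1+ TGF-β, 5.56 cpm in D20 and 11.2 cpm in D20+ TGF-β. The summed cell cycle level was also lowest in D20 and next in D20+ TGF-β. Its median in D1+ TGF-β (1125 cpm) was not above that in D1 (1133 cpm), and a link to EZH2 was not tested. The calls of KDM1A and WTIP at day 1 and of HDAC2 at day 20 were lost in 8, 9 and 9 of the 12 fits that each left out 1 library, and that of HDAC1 at day 1 was lost without any 1 of the D1+ TGF-β flasks. Without D20+ TGF-β replicate 3, 2 corepressors and not 3 were called higher at day 20. The list's median was -0.01 at day 1 and 0.09 at day 20.

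Of 8 genes that act on Snail protein stability, 7 were tested. At day 1, 0 of 7 were called by edgeR, DESeq2 and limma-voom on 12 libraries, against 13.4% of all genes. Without D1 replicate 2, 1 was called. An unadjusted p under 0.05 (edgeR) was found there for 2 of the 7 and for 3498 of the 9490 genes tested, with all libraries. At day 20 3 of 7 were called, against 27.5% of all genes. BTRC, the F-box protein that marks Snail for degradation, fell by 0.68 (adjusted p = 1.87e-04), and LATS2, a kinase that retains Snail in the nucleus, fell by 0.89 (adjusted p = 2.09e-05). PAK1, a kinase that phosphorylates Snail, rose by 0.60 (adjusted p = 0.00890), with D20+ TGF-β replicate 3 at 67.2 cpm against 42.4 and 43.3 cpm in the other flasks. Without that flask PAK1 was higher by 0.35 and not called (adjusted p = 0.0299), and its call was lost in 8 of the 12 fits that left out 1 library. BTRC measured 77.8 to 81.8 cpm in D20 and 42.3 to 55.8 cpm in D20+ TGF-β, without overlap. These are RNA levels, and Snail protein was not measured here.

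Of 19 epithelial genes, a class these factors are known to repress, 13 did not exceed 6.83 cpm in any library and 6 were tested. CLDN1, a tight junction claudin, was 47.0 to 131 cpm and JUP, plakoglobin of desmosomes and adherens junctions, 42.8 to 121 cpm over the 12 libraries. Neither was called under TGF-β at day 1 (0.17, adjusted p = 0.674 for CLDN1 and -0.06, adjusted p = 0.844 for JUP) or at day 20 (0.20, adjusted p = 0.550 and -0.21, adjusted p = 0.327), but without D1 replicate 2 and D20+ TGF-β replicate 3 CLDN1 was called higher at day 20 (0.53, adjusted p = 0.00144). JUP rose by 1.06 in D20 vs D1 (adjusted p = 1.55e-04). Both are named after their values were seen. CDH1, which encodes E-cadherin, had 5 counts in all 12 libraries together and 0 in 9 of them. CRB3 also had 5 counts in all. OVOL1, OVOL2 and GRHL2, factors that hold the epithelial state, had no count in any library, which allows up to 3 counts in each.

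DSP, which encodes desmoplakin and carried the E-box in its promoter window at 2 places, was detected in all flasks and was higher under TGF-β. It measured 9.88, 19.9 and 7.49 cpm in D1 and 33.8, 36.9 and 33.4 cpm in D1+ TGF-β. At day 20 it measured 9.12, 11.4 and 11.6 cpm without and 24.1, 32.4 and 33.7 cpm with TGF-β. DSP rose by 1.46 (SE 0.25, adjusted p = 0.00102) at day 1 and by 1.47 (SE 0.26, adjusted p = 5.34e-04) at day 20. MUC1, also with the E-box at 2 places, was below the filter and went the other way. In the edgeR fit without the filter it fell by 0.71 at day 20 (adjusted p = 0.00592) and was not called at day 1 (-0.35, adjusted p = 0.413). OCLN, PATJ and CRB3, the remaining epithelial genes with the E-box, were not called under TGF-β in that fit. KRT18, a simple epithelial keratin that fibroblasts also express at low level, rose by 0.66 at day 1 (adjusted p = 1.78e-04) and fell by 0.75 at day 20 (adjusted p = 2.77e-05). Its responses differed by -1.40 (SE 0.13, adjusted p = 1.33e-05). KRT18 was 24.5 ± 1.63 cpm in D1, 38.4 ± 2.08 cpm in D1+ TGF-β, 35.9 ± 2.03 cpm in D20 and 21.4 ± 2.15 cpm in D20+ TGF-β (SD, n = 3), with no overlap between the treated and untreated flasks of either day.

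Of 16 mesenchymal genes, all were tested. At day 1, 12 rose and 1 fell under TGF-β, and at day 20, 7 rose and 1 fell, against 6.89% higher and 6.5% lower of all genes at day 1 and 12.8% and 14.7% at day 20. The list's median log2 change was 1.09 at day 1 and 0.28 at day 20. CDH2, which encodes N-cadherin, was 35.2 ± 5.62 cpm in D1 and 177 ± 16.7 cpm in D1+ TGF-β, and 23.7 ± 0.45 cpm in D20 and 92.7 ± 14.2 cpm in D20+ TGF-β (SD, n = 3). CDH2 rose by 2.33 (adjusted p = 5.54e-08) at day 1 and by 1.96 (adjusted p = 1.16e-07) at day 20. FN1, fibronectin, rose by 1.34 (adjusted p = 1.05e-05) and 1.95 (adjusted p = 1.57e-07). VIM, vimentin, differed by 0.05 at day 1 (adjusted p = 0.801) and had an adjusted p of 0.999 at day 20. S100A4 was the gene that fell at day 1 (by 0.70, adjusted p = 5.71e-04) and CDH11 the gene that fell at day 20 (by 0.55, adjusted p = 0.00509). The CDH11 call was lost without D20+ TGF-β replicate 3 (-0.48, adjusted p = 0.0187) and in 3 more of the 12 fits that left out 1 library, those without D20 replicate 2 or 3 or D20+ TGF-β replicate 1.

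The difference of the responses was called for 9 of the 16 mesenchymal genes, with 7 lower at day 20 and 2 higher (MMP2 and POSTN), against 5.87% lower and 4.51% higher of all genes. It was 7 with the replicate block and 11 without D1 replicate 2 and D20+ TGF-β replicate 3. The MMP2 difference (0.68, adjusted p = 0.00731) was lost in 8 of the 12 fits that left out 1 library. ACTA2, smooth muscle actin, rose by 2.07 at day 1 (adjusted p = 2.28e-06) and differed by 0.13 at day 20 (adjusted p = 0.554). TNC, a matricellular protein, rose by 1.43 at day 1 (adjusted p = 4.32e-06) and differed by 0.43 at day 20 (adjusted p = 0.0128), which passed when D1 replicate 1 or 2 was left out. POSTN, periostin, went from 159.9 ± 60.1 to 465 ± 61.0 cpm at day 1 and from 250.5 ± 21.1 to 2497 ± 304 cpm at day 20 (SD, n = 3). The POSTN responses differed by 1.78 (SE 0.31, adjusted p = 0.00150).

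**Figure D4:**
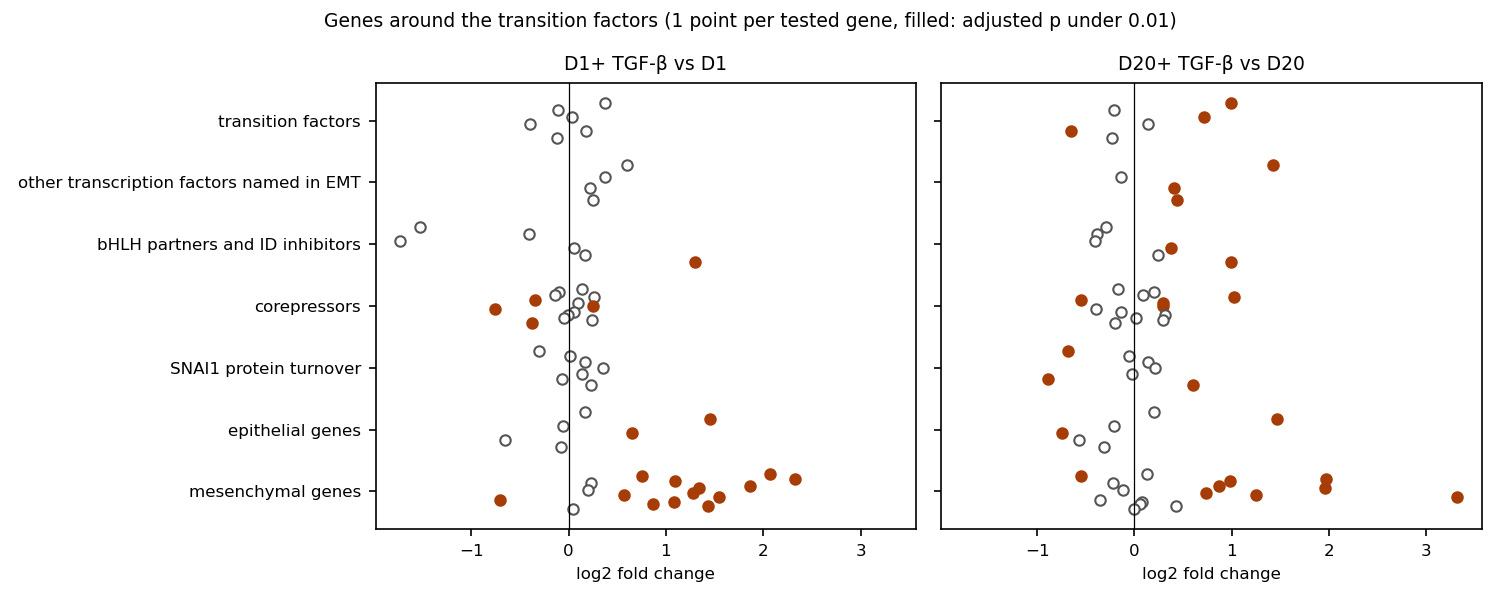
Log2 fold changes under TGF-β at day 1 (left) and day 20 (right) of the tested genes in the factor set and 6 related lists, 1 point per gene, filled where the adjusted p was under 0.01. Mesenchymal genes lie mostly to the right of 0 at day 1 (12 called higher, 1 lower), while the factors have no filled point at day 1 and 3 at day 20.

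For each tested factor, the gene with the most similar log2 cpm over the 12 libraries was GALC for SNAI2 (Pearson's r = 0.98), FGD5-AS1 for TWIST1 (0.94), PRRT3 for TWIST2 (0.93), STK38 for ZEB1 (0.98), MAN2B2 for ZEB2 (0.99) and ENPP1 for PRRX1 (0.98). The next in rank were ZRANB1 and DTWD1 for SNAI2, TRIM2 and VPS8 for TWIST1, SAT2 and FBXW4 for TWIST2, RIOK3 and DDX58 for ZEB1, FBLN1 and CPQ for ZEB2, and MCUR1 and ZFP91 for PRRX1, with r from 0.91 to 0.99. These are descriptions over 12 points that share libraries and fall into 4 groups. No gene was in the leading 3 of more than 1 factor.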

How the data were processed

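RNA from 12 flasks of WI-38 cells was made into directional libraries and sequenced as paired ends on a NextSeq 500. Per the study's methods, the authors trimmed reads with Trimmomatic and aligned them with Rsubread to hg19. The deposited counts are whole reads per gene and lane, not normalized. The authors also deposited log2 values per lane after their own filter and voom transformation in limma, used here for gene symbols and as an alternative. The counting program, annotation and use of strand are not given in the sources used here. Groups were taken from the sample titles.

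The 4 lanes of each library were summed. Totals were 8674488 to 18286197 counts, and all intervals and errors cover the spread between flasks. The 9490 genes that reached 10 cpm in 6 or more libraries were fitted with edgeR 4.0.16 in R 4.3.3 (TMM scaling, quasi-likelihood F test, 4 group means over 12 libraries), with p-values adjusted over all tested genes (Benjamini-Hochberg) and a threshold of 0.01. The filter level follows the study's methods, which set it over lanes. The biological coefficient of variation was 9.35%. Printed cpm use TMM-scaled library sizes, and a standard error is the log2 fold change divided by the root of F. SNAI1 and other genes under the filter were read from the fit without a filter (20434 genes).

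Alternatives were RLE scaling, no composition factor, DESeq2 1.42.0, limma 3.58.1 with voom on 12 libraries or on 48 lanes, limma on the deposited log2 values, no gene filter, the filterByExpr filter, fits on the compared libraries alone, a replicate block and leaving out each library. A fit without the 2 libraries farthest from their groups was added after seeing the data. The fits were tested on simulated data.

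The members and lists were chosen with earlier results of these data known. Genes named are the 7 factors, their paralogs, and from each list up to 3 with the smallest p per TGF-β comparison or any counted as 5 or fewer, with CDH1, CDH2, VIM, FN1, ACTA2, TAGLN, POSTN and TNC. In the lists, 2 genes are not reported here, and counts and medians leave them out. Positions are from GENCODE on GRCh37 and promoters from RefSeq on GRCh38.p14. DSP and CRB3 promoters, and CLDN1 and JUP, were picked after their values were seen. MUC1, OCLN and PATJ are named for their E-box, also after their values were seen.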

Additional observations from a re-analysis of the deposited data

Results flagged for a closer look

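Among 62 named genes tested, the TGF-β response at day 20 differed from that at day 1 for 18 (edgeR test of the difference of responses, adjusted p under 0.01), against 10.4% of all genes tested. Most of these names were picked for a small p in the TGF-β comparisons, so nothing is read from their share. Of the transition factors it differed for ZEB1 (-0.83 on the log2 scale). Of the mesenchymal genes, the difference was -1.01 for SPARC, -0.999 for TNC, -1.30 for CDH11, -0.54 for LOX, -1.94 for ACTA2, -0.81 for TAGLN, 1.78 for POSTN and 0.68 for MMP2. Those of LOX, TAGLN and MMP2 lost the call in 10, 9 and 8 of 12 fits that each left out 1 library. Of the 4 TGF-β targets used as a check, 2 were called lower in this difference, TGFBI (-1.34) and CTGF. CTGF is not counted among the 62 named genes or the 18. The cell cycle genes were higher in the day 20 response, by 1.64 for CCNB1, 1.83 for BUB1, 1.77 for PLK1, 1.51 for CCNA2 and 1.90 for BIRC5. The remaining differences were -0.82 for LATS2, -1.40 for KRT18 and -0.99 for THY1. Of the 18, 11 were lower and 7 higher in the day 20 response.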

How the results depend on the processing

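Of the values of single factors under the alternatives, 641 kept their direction and side of the threshold, 26 gained a call, 17 lost one and 0 changed direction once called. For the other named genes the counts were 5985, 185, 211 and 3. The 3 that reversed were ID3 in D20 vs D1, at 1.37 both without D1 replicate 2 and without the 2 libraries farthest from their groups (called there, -0.24 and not called with all libraries, and -0.66 to 1.37 over fits that leave out 1 library), and ID1 at 0.52 without those 2 libraries. Counts of factors called over 6 that moved were, in D1+ TGF-β vs D1 (0), 1 without a composition factor, 4 with 48 lanes as samples and 3 without the 2 libraries. They were 5 with 48 lanes in D20+ TGF-β vs D20 (3) and between the TGF-β groups of both days (3). In the difference of responses (1) they were 3 without a composition factor, 2 with DESeq2, 4 with 48 lanes, 2 without the gene filter and 2 without the 2 libraries. Leaving out each library in turn gave 0 to 1, 3 to 4, 2 to 4, 2 to 4 and 1 to 2 factors called for TGF-β at day 1, TGF-β at day 20, time with TGF-β, time without it and the difference. The cause was not tested. Genes called over all genes with 48 lanes were 3934 (1271), 5205 (2609), 5762 (3307), 5934 (3457) and 3712 (985) in that order, since lanes of 1 library are not replicates. In D1+ TGF-β vs D1 they were 802 on the libraries compared alone and 2642 without the 2 libraries, and in the difference 2264 without the 2 libraries. Leaving out each library in turn gave 619 to 1875, 1795 to 3288, 2275 to 4018, 2470 to 4003 and 549 to 1731, with the highest count of each without D1 replicate 2 and the lowest without D1+ TGF-β replicate 2 except in D20+ TGF-β vs D20 (without D20 replicate 2) and D20 vs D1 (without D20 replicate 3). The count of 2 factors in D20 vs D1 (4) came without D1 replicate 2 or 3 or D20 replicate 2 or 3.

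Replicate numbers are shared by the groups, but the samples share only a number. Over 18 pairs of the same number the correlation of deviations from the group means was -0.22 to 0.32 with a median of -0.05, and 1 of 12 libraries correlated best with its own number. With the replicate block, 0, 3, 3, 3 and 2 of 6 factors were called, in the same order as above (the 2 being ZEB1 and TWIST1), and 1072, 2379, 3086, 3229 and 831 genes in all. Genes under the filter, such as SNAI1, PRRX2 and SNAI3, had low counts, at 9 to 228 per library.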

Other observations

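Factors that hold the epithelial state were below the filter. Among those with counts in every flask, GRHL1 and EHF differed in direction at day 20 in the fit without a filter. ESRP2, at 2.75 to 5.16 cpm, also had counts in every flask and was not called there (log2 0.40, adjusted p = 0.153, edgeR). GRHL1, a grainyhead factor, was 2.52 to 3.92 cpm in D20 and 0.46 to 1.23 cpm in D20+ TGF-β, without overlap, and fell by 2.13 on the log2 scale (SE 0.34, adjusted p = 1.76e-05, edgeR). It rose by 1.44 in D20 vs D1 (SE 0.31, adjusted p = 5.45e-04). EHF, an epithelial ETS factor, had 5 to 6 counts per library in D20 and 158, 32 and 10 counts in D20+ TGF-β replicates 1, 2 and 3 (log2 3.45, SE 0.53, adjusted p = 1.23e-05). The treated EHF values spread over 0.96 to 9.03 cpm, and the fit without a filter was not repeated without replicate 1. ESRP1, a splicing factor that ZEB proteins repress in epithelia, had 2 counts in all 12 libraries together.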
